A study of Mus musculus with 167 samples.

Results

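CTCF peaks at gene promoters were the CTCF binding sites of mouse pro-B cells that lay within 1000 bp of an annotated transcription start. They were taken from the peaks of the first wild-type CTCF ChIP-seq library, kept when at least 1 bp was overlapped by a peak of the second wild-type library and when the peak midpoint lay within 1000 bp of any start in the GENCODE annotation of mm9. Of 36687 peaks in the first library, 34272 were overlapped in the second, and 4919 of those (14.4%) were promoter peaks. Another 326 promoter peaks of the first library had no overlap in the second and were not members. The rule used positions only and no RNA value.

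The series followed how the transcription factor Pax5 represses Wapl, the gene of the factor that releases cohesin from DNA, and how this bears on the immunoglobulin heavy-chain locus (Igh). All animals described here were C57BL/6 mice. CTCF was precipitated with a rabbit polyclonal antibody from bone-marrow pro-B cells expanded in vitro for 5 days, in 2 wild-type libraries and in 2 libraries of the genotype Igh(890-inv/890-inv), which carries an inversion within Igh on both alleles. mRNA-seq came from pro-B cells cultured for 3 days, in 2 Wapl(+/+) and 3 Wapl(dP1,2/dP1,2) libraries, and from pro-B cells sorted directly from bone marrow, in 2 Wapl(+/+) and 2 Wapl(dP1,2/dP1,2) libraries. The Wapl(dP1,2) allele carries a deletion that the labels write as deltaP1,2, and Wapl itself has no promoter CTCF peak. The labels do not say whether libraries of a group came from separate animals or cultures, so p-values measure the spread between these libraries only.

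CTCF is a zinc-finger protein that binds a long, directional DNA motif and stops cohesin as it extrudes chromatin loops. A pair of CTCF sites facing each other often forms the base of a loop, so the strand of the motif matters as well as its place. Near promoters, CTCF is known to separate or connect genes and distal elements. In the Igh locus it binds next to many variable (V) gene segments, which are joined to D and J segments in pro-B cells.

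The core of the CTCF motif was searched on both strands as CCNNNAG followed directly by NNGGC in the 300 bp around each peak midpoint. The following 60-base stretches are shown because they carry the cores at genes described below. Each is read along the motif strand in mm9, with the 12-base core in capitals. The first set comes from genes of the cohesin machinery, from growth and receptor genes, from a ribosomal protein gene and from the Hoxa cluster.
Ctcf, chr8:108160631-108160690, minus strand: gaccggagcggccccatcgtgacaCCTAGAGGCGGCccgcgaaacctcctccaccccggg
Stag2, chrX:39502425-39502484, plus strand: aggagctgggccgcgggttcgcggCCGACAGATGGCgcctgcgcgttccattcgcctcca
Pds5b, chr5:151476244-151476303, plus strand: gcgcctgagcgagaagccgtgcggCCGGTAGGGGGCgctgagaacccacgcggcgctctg
Myc, chr15:61816978-61817037, minus strand: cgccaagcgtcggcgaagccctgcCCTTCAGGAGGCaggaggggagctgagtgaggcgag
Kit, chr5:75971760-75971819, plus strand: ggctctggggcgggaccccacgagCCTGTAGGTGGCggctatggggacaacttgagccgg
Rplp0, chr5:116009275-116009334, plus strand: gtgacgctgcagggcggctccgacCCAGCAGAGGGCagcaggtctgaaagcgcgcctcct
Hoxa7, chr6:52171784-52171843, minus strand: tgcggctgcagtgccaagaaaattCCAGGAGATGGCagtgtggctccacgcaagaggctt

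The second set comes from V genes of Igh and is shown because these cores all have the orientation of the V gene beside them. The Igh genes are transcribed from the minus strand.
Ighv5-2, chr12:114816621-114816680, minus strand: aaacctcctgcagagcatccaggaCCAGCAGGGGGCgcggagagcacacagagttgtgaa
Ighv2-2, chr12:114826382-114826441, minus strand: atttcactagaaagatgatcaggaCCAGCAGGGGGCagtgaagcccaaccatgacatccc
Ighv5-4, chr12:114835563-114835622, minus strand: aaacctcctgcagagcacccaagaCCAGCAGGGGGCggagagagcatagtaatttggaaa
Ighv2-3, chr12:114849299-114849358, minus strand: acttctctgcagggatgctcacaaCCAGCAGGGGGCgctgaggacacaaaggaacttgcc
Ighv5-12, chr12:114940241-114940300, minus strand: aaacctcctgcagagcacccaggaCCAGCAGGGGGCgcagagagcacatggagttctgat
Ighv4-1, chr12:115186397-115186456, minus strand: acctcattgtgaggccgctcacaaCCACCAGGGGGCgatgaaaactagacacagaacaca

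The third set comes from T-cell receptor V genes on chromosome 14, transcribed from the plus strand, whose cores also have the orientation of the gene but lie before its start.
Trav10, chr14:54125222-54125281, plus strand: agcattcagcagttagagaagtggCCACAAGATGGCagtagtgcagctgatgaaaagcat
Trav17, chr14:54426053-54426112, plus strand: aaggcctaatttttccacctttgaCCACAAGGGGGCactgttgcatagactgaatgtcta
Trav3-4, chr14:54396526-54396585, plus strand: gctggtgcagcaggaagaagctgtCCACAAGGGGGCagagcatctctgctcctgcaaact

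The core was found in 2321 promoter windows (47.2%), and 198 of these held more than 1. It was found in 57.7% of the 300-bp windows of the 29353 reproducible peaks away from starts. Windows around coding starts with no promoter peak held it in 8.19% of cases, and windows 2000 bp to the right of the promoter peaks in 5.53%. A window without these letters can still hold a weaker form of the motif, and a match is not by itself a bound site.

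Promoter sites differed from other CTCF sites in base composition. The median GC content of their windows was 55.3%, against 46.0% for the reproducible peaks away from starts and 56.3% for coding starts with no promoter peak. The observed over expected CpG ratio had medians of 0.510, 0.207 and 0.486 in the same order. This extended into the core itself. A CG pair, the site of DNA methylation, lay inside the core in 586 of 2123 promoter windows with a single core (27.6%), against 897 of 16066 windows away from starts (5.58%). The core of Ctcf shown above holds one, at GGCGGC, and so does the start of the Stag2 core, CCGACAGATGGC, whereas the cores of the V genes shown hold none. Peaks of 1 library pair are not replicates, so these shares are descriptions with no test.

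Promoter peaks lay close to the start and more often before it than after it. The midpoint was upstream of the nearest start in 2945 peaks (59.9%) and downstream in 1974 (40.1%). The median distance was 261 bp, and 1271 peaks (25.8%) lay within 100 bp. The first 100 bp upstream held 16.6% of all promoter peaks and the next 100 bp 12.5%, whereas the first 100 bp downstream held 9.25% and the next 5.12%. Peaks close to the start of Rpl5, a large-subunit ribosomal protein gene, and of Rpl10a had midpoints at -1.5 bp and -0.5 bp relative to it.

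**Figure D1:**
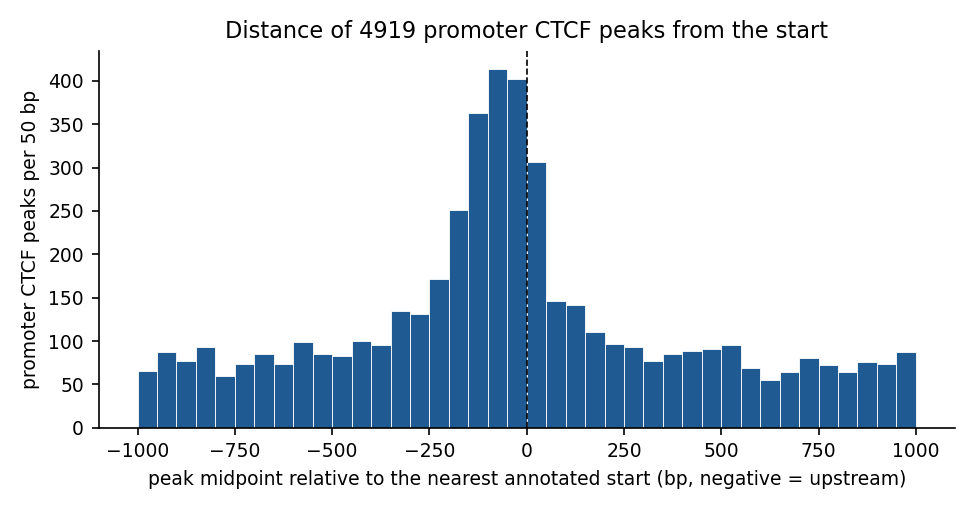
Number of promoter CTCF peaks per 50 bp by the distance in bp of the peak midpoint from the nearest annotated start, with upstream distances negative. The bins just upstream of the start are the fullest: the first 100 bp upstream held 16.6% of the peaks and the first 100 bp downstream 9.25%.

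At the 1000 bp limit itself, the last peaks inside were those of 2610027K06Rik, Cbx1, Cabp1 and Asb4 at 999 bp and Gm1720 at 1000 bp. The first ones outside were those of Gm129 at 1000.5 bp, Taf8 at 1001 bp, Sh3bp1 at 1001.5 bp, and Lonrf2 and Gnl3 at 1003 bp. The limit cuts through a continuous range of distances: 1535 peaks lay between 500 and 1000 bp and 1289 between 1000 and 1500 bp.

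Peak width had a median of 386 bp (interquartile range 314 to 477) at promoters and 352 bp (296 to 425) away from them. The deposited lists give no height or score, so depth and strength of a peak are unknown. By annotated place, 36.4% of promoter midpoints lay in introns, 37.8% between genes and 11.3% in untranslated exons. Another 7.54% lay in coding exons and 6.91% in exons of non-coding transcripts. The share of reproducible peaks that were promoter peaks ran from 10.8% on chromosome 12 to 17.9% on chromosome 11, leaving out chromosome Y with its 1 reproducible peak, which was no promoter peak.

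The 4919 peaks lay at the starts of 4957 genes. Of the 22367 annotated protein-coding genes, 4071 (18.2%) had a promoter peak. The other genes included 223 processed transcripts and 209 long intergenic non-coding RNAs. Most genes (4453) had 1 promoter peak, 462 had 2, 34 had 3 and 8 had at least 4. A peak could also serve several genes: 563 peaks lay within the limit of at least 2 genes, and 477 (9.70%) of starts on both strands. The genes with the most peaks were Plec, which encodes the cytoskeletal linker plectin, and Tapbp, which encodes the peptide-loading factor tapasin, with 5 each. Lpcat3, Pcdha11 and Pcdhgc5 had 4 each.

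The label of a promoter did not hold for every peak. At 158 peaks (3.21%) the midpoint lay past the 3′ end of the gene whose start was nearest, since some genes are shorter than the limit. This was the case at 15 of 4178 peaks nearest to a coding gene, at 33 of 56 nearest to a microRNA gene and at 24 of 55 nearest to a V gene.

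In Igh the peaks counted as promoter peaks were therefore mostly sites behind the V gene. Of 112 annotated V genes, 28 had such a peak. In 23 the midpoint lay downstream of the start, and all 23 were past the 3′ end of the gene, by 21.5 to 489.5 bp (median 59.5 bp). That is the side on which the recombination signal sequence of a V gene lies. The other 5 were upstream, with a median position of -825.5 bp relative to the start, and belonged to Ighv1-64, Ighv1-67, Ighv1-69, Ighv1-72 and Ighv1-74, at the end of the V cluster farthest from the J genes. The core was found at 23 of the 28, and in all 23 it had the strand of the V gene.

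T-cell receptor V genes on chromosome 14, which the annotation files under the same type as Igh V genes, differed in place. All 20 of their peaks were upstream of the start, with a median position of -196.5 bp. The core was found at 15, and at all 15 it had the strand of the gene. Of the 20 genes, 12 carry T-cell receptor names and 8 only Gm names, which lie among them. These genes were singled out after their values were seen. Across all promoter peaks with a single core, the strand was that of the gene in 1135 of 2123 (53.5%). Over the peaks upstream of starts the share was 55.2%, and over those downstream 50.7%.

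**Figure D2:**
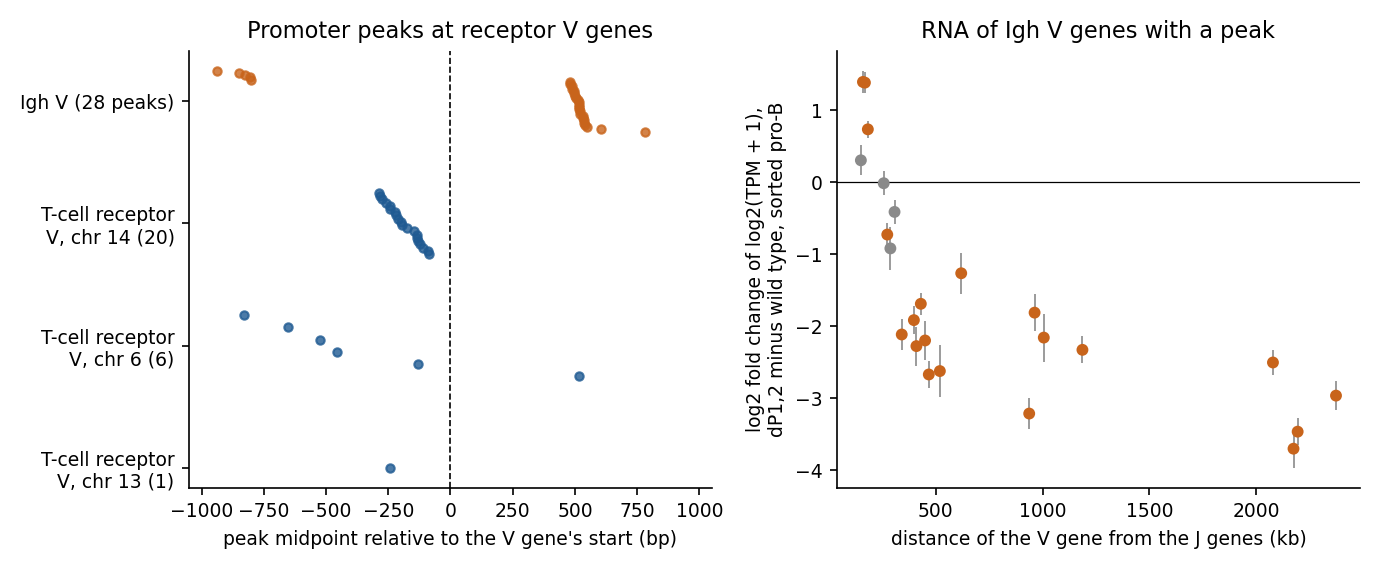
Left, distance in bp of each promoter peak midpoint from the start of the V gene, for Igh and for T-cell receptor V genes by chromosome; right, log2 fold change (dP1,2 minus wild type, with SE as bars, called genes in orange) in sorted pro-B cells against distance in kb from the J genes. In Igh 23 of 28 peaks lie downstream of the start and on chromosome 14 all 20 lie upstream, and the V genes called higher are among the 4 nearest to the J genes.

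In cultured wild-type pro-B cells, genes with a promoter peak had more RNA than genes without one. Levels are the authors' TPM values, which are scaled per gene length and per library total. Sequencing depth is unknown from them. In the 2 libraries, 81.6% and 81.3% of the 3935 coding genes with a promoter peak and a TPM value were at 1 TPM or more, with medians of 20.8 and 20.0 TPM. Of the 16109 without one, 52.1% and 51.9% reached 1 TPM, with medians of 1.60 and 1.52 TPM. The gap between these classes was far larger than the difference between the 2 libraries. Genes are not replicates of a condition, so no test was made.

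The share also fell with distance to the nearest peak. It was 67.9% for coding genes whose nearest reproducible peak lay 1 to 5 kb from a start, 60.7% at 5 to 20 kb, 49.6% at 20 to 50 kb and 22.2% beyond 50 kb, in the first library. Read the other way, a promoter peak was present at 4.09% of coding genes in the lowest TPM class and at 29.9% in the highest, with 14.6%, 24.9% and 28.1% in between.

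Base composition of the start moved with both measures. CpG-rich starts (GC of at least 50% and an observed over expected CpG ratio of at least 0.6 in 500 bp) were at 1 TPM or more in 89.2% of genes with a peak and 81.3% without. At CpG-poor starts the shares were 63.1% and 26.9%. Genes with a single annotated start gave 76.4% and 35.7%, and those with 3 or more gave 84.3% and 71.4%. Genes with a peak had a median of 4 annotated starts, and genes without one had 2. The difference between genes with and without a peak was thus smaller at CpG-rich starts and at genes with 3 or more starts. The part of CpG content and of the number of starts in it was not tested.

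**Figure D3:**
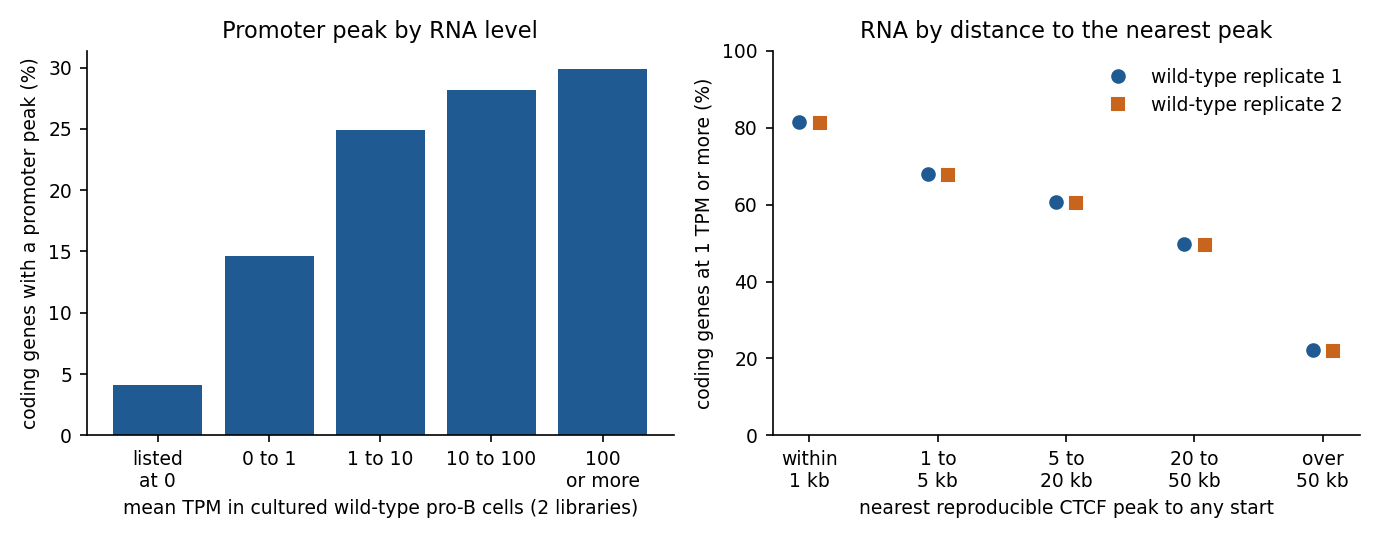
Left, percentage of coding genes with a promoter peak, by mean TPM in cultured wild-type pro-B cells; right, percentage of coding genes at 1 TPM or more by distance to the nearest peak, with 1 point for each of the 2 libraries. On the right, genes with a promoter peak are at 81.6% and 81.3%, and the share is lower in each class farther from a peak, down to 22.2% beyond 50 kb.

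Genes whose peak held the core were not the more abundant ones. The share at 1 TPM or more was 79.0% for genes whose promoter peak held a core and 83.7% for those whose peak held none. It was 85.2% for the widest of 4 width classes of peaks and 77.2% for the narrowest.

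The 10 most abundant genes with a promoter peak were mostly ribosomal protein genes. Rps29 was at 5707 and 5803 TPM, Rps26 at 5524 and 5477 TPM, and Rps20 at 5303 and 5301 TPM. Actb, which encodes cytoplasmic beta-actin, was at 4085 and 3808 TPM, and Vim, which encodes the intermediate filament vimentin, at 3995 and 3408 TPM. They also included Rpl4, Rps14 and Rpl32. Ribosomal protein genes have many near-identical copies, as does Gapdh, a glycolytic enzyme gene listed at only 12.3 and 10.6 TPM, so the levels of these genes are uncertain.

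Gene lists differed in how often they had a promoter peak, against 18.2% of all coding genes. All annotated genes of the cohesin, B-lineage, ribosomal, glycolysis, cell-cycle, p53 and proto-oncogene lists reached 1 TPM in wild-type culture. At such levels the share of coding genes was higher: 24.9% at 1 to 10 TPM, 28.1% at 10 to 100 TPM and 29.9% above. The p53, proto-oncogene and cell-cycle lists were near these shares or below them in having a promoter peak. Of 15 genes of cohesin, its regulators and CTCF, 9 had one. Ctcf carried a peak of 657 bp whose midpoint lay at -158 bp from the start. The structural cohesin genes Smc1a, Smc3, Stag1 and Stag2, the loader gene Nipbl, the cohesin-binding regulators Pds5a and Pds5b and the acetyltransferase gene Esco1 also had one. Stag2 and Pds5b had the centre of the core shown above at -39.5 and -40.5 bp from the start, both on the strand of the gene. Wapl was among the 6 with none.

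These genes were active in both wild-type cultures. Ctcf was at 156 and 155 TPM, Smc1a at 164 and 162 TPM, Smc3 at 97.7 and 80.7 TPM, Stag2 at 74.8 and 60.3 TPM and Nipbl at 37.7 and 34.8 TPM. Smc1a was the 1 of the 9 whose peak was missing from both 890-inv libraries, and its peak was narrow (197 bp) and without a core.

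Of 17 B-lineage transcription factor genes, 6 had a promoter peak: Pax5, Ikzf1, Bach2, Bcl11a, Erg and Sox4. None of the peaks of these 6 genes held the core. Bach2 had 3 peaks at its starts and Bcl11a 2. None of 12 genes of the pre-B-cell receptor list had one, and of 11 genes of V(D)J recombination and end joining only Xrcc5, which encodes Ku80, and Lig4, which encodes DNA ligase IV, did.

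Of 38 listed ribosomal protein genes 17 had a promoter peak, of 17 glycolysis genes 7 and of 16 proto-oncogenes and survival genes 4. Of 18 cell-cycle genes 4 had one, of 10 p53 targets 3, of 26 imprinted genes 3 and of 20 CpG-poor tissue genes 1. The ribosomal list is partial: Rps29, Rps26 and Rps20, which also had a promoter peak, are not among its 17. Myc, a growth-promoting transcription factor gene, had 3 peaks, 1 of them with its midpoint at -3 bp. Of 39 Hox genes, which set position along the body axis, 7 had one. Of 27 annotated clustered protocadherin genes, whose promoters CTCF is known to bind in neurons, 18 had one although their RNA in pro-B cells was low, with Pcdhgc5 at 2.13 and 1.59 TPM.

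Presence was then read in pro-B cells carrying the Igh inversion. Of the 4919 promoter peaks, 94.6% were overlapped in the first 890-inv library and 84.0% in the second, and 4091 (83.2%, Wilson 95% interval 82.1 to 84.2) in both. The interval covers counting error only. Reproducible peaks away from starts were present in both in 83.7%. The second 890-inv library had 29352 peaks and the first 34754, and the shares followed that order: 563 promoter peaks were in the first only and 39 in the second only. In neither were 226 promoter peaks (4.59%), against 1193 (4.06%) of the peaks away from starts.

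Width moved with presence more than location did. All reproducible peaks were divided into 4 equal width classes, at 298, 356 and 432 bp. In the narrowest class 43.0% of promoter peaks were in both 890-inv libraries, then 83.9%, 94.8% and 97.6% in the wider classes. Peaks away from starts gave 49.8%, 90.0%, 98.0% and 99.1%. Within each class the promoter share was therefore the lower one, while promoter peaks were wider as a class. Median width was 409 bp for promoter peaks in both libraries and 255 bp for those in neither. Peaks with a core were in both in 85.8% and those without in 80.8%.

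**Figure D4:**
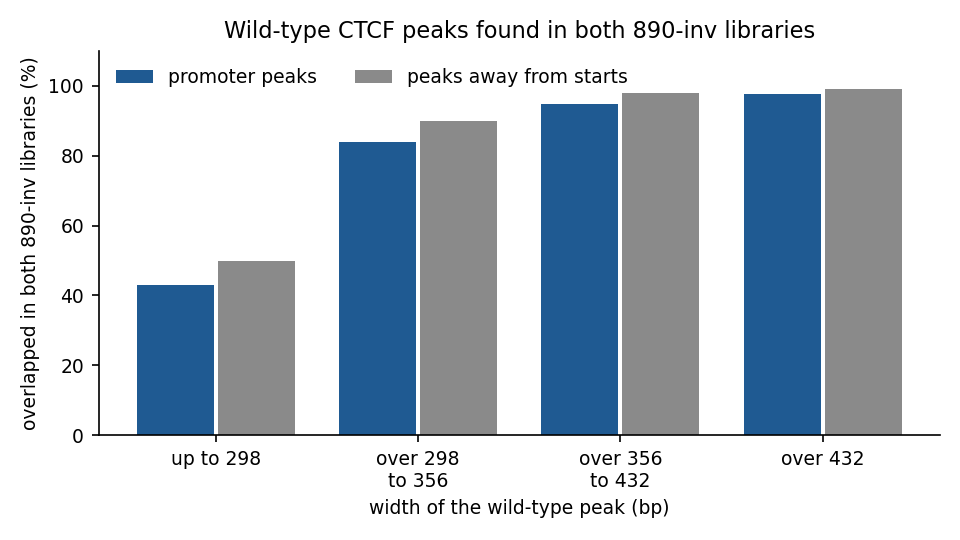
Percentage of reproducible wild-type CTCF peaks present in both 890-inv libraries, by class of peak width in bp, as bars, for promoter peaks and for peaks away from starts. Presence climbs from 43.0% to 97.6% at promoters and from 49.8% to 99.1% elsewhere.

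At promoters, chromosome 12, which holds Igh, did not stand below the rest: 123 of its 141 promoter peaks (87.2%) were in both. Of its peaks away from starts, 82.7% were in both. Without chromosome 12 the shares were 83.0% at promoters and 83.7% away from starts. Of the 28 peaks at Igh V genes, 24 were in both. The 890-inv peaks inside the locus are written at mm9 positions, since 66 of 74 in the first library and 54 of 56 in the second overlapped a peak of the first wild-type library.

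As a share of each library's own peaks, with chromosome 12 left out, promoter peaks made up 14.43% and 14.55% in wild type and 14.37% and 14.49% in 890-inv. The groups overlapped, with a difference of 0.0586 percentage points (exact two-sided permutation test, p = 0.6667). In 3 of 4 alternatives they did not overlap. With an equal number of the widest peaks from each library, the shares were 15.14% and 15.21% in wild type and 14.73% and 14.49% in 890-inv, a difference of 0.565 percentage points (exact two-sided permutation test, p = 0.3333). With 2 libraries against 2, the smallest p this test can give is 0.3333.

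The promoter peaks missing from both 890-inv libraries at the most abundant genes were those of Rpl4, Uqcr11, Lxn, 2410015M20Rik, Srrt, 1110004F10Rik, Dnmt1, Eef1d, Calu and Pafah1b3. None of these 10 held the core. Rpl4, at 4687 and 4801 TPM, had a peak of 403 bp, and 1110004F10Rik one of 587 bp, so not all were narrow. Dnmt1, which encodes the maintenance DNA methyltransferase, had a peak of 281 bp and RNA of 243 and 263 TPM. Of the 159 genes whose promoter peaks were missing from both, 79.9% reached 1 TPM in wild-type culture, and of those with a peak in both 81.6%.

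RNA of the genes with a promoter peak was next compared between Wapl(dP1,2/dP1,2) and Wapl(+/+) pro-B cells, to ask how genes with CTCF at the start fare where Wapl is not held low. CTCF was not profiled in Wapl(dP1,2) cells in the files used here. Wapl was at 12.2 and 7.41 TPM in cultured Wapl(+/+) and at 52.8, 30.8 and 30.9 TPM in cultured Wapl(dP1,2/dP1,2) libraries. In sorted cells it was at 10.4 and 10.999 TPM, and at 30.9 and 31.7 TPM. The labels of all 9 libraries thus matched the level of Wapl. Differences below are limma log2 fold changes of TPM + 1, which understate the change of low genes, and a gene is called at an adjusted p under 0.05 over all genes tested. In bulk samples, fewer cells of a type and less RNA per cell cannot be told apart.

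In culture, genes with a promoter peak changed about as often as all genes. Of 3312 tested, 681 were called (20.6%), where 21.7% of all 12457 genes tested were called. Higher in Wapl(dP1,2/dP1,2) were 101 and lower 580, against 3.16% higher and 18.5% lower over all genes. Their median log2 fold change was -0.17, and that of all genes -0.18. With each library centred on its own median, 508 were higher and 402 lower, so that 55.8% of the calls were higher where it was 14.8% without centring. The split between higher and lower calls therefore depends on the scaling. Single libraries also set the count, which was 70 and 161 without the first and the second Wapl(+/+) library, 1646 without the first Wapl(dP1,2/dP1,2) library and 351 without the second.

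Several markers of other cells moved with this comparison. The summed level of 6 stroma genes, of which 5 reached 1 TPM, was 1594 and 1358 TPM in cultured Wapl(+/+) and 960.5, 769.7 and 737.3 TPM in cultured Wapl(dP1,2/dP1,2) libraries. The 2 of them with a promoter peak fell, Col1a1 from 456 and 426 to 260, 223 and 228 TPM, and Col1a2 from 729 and 617 to 403, 336 and 326 TPM. The summed level of 10 T-cell and innate lymphoid genes was 133 and 87.9 against 32.8, 34.7 and 39.3 TPM. Only 3 of these 10 reached 1 TPM in each Wapl(+/+) culture and 2 in each Wapl(dP1,2/dP1,2) culture, so few genes carry that sum. All 11 pro-B markers reached 1 TPM in every library. The Y-linked gene Eif2s3y was at 72.3 and 71.4 TPM in the first 2 Wapl(dP1,2/dP1,2) cultures and under 1 TPM in the other 3 cultures, so the cultures mixed animals of both sexes unevenly. The part of other cells and of sex in the changes of RNA was not tested.

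The 5 genes with the largest rises in culture were Adap1, Ramp1, Pcp4, Car2 and Rasgrp1. Adap1 was at 2.67 and 3.54 TPM in Wapl(+/+) and at 27.6, 19.2 and 25.4 TPM in Wapl(dP1,2/dP1,2) libraries, a log2 difference of 2.60 ± 0.20 (SE, limma adjusted p = 0.000296). Car2, which encodes carbonic anhydrase II, was at 105 and 110 against 286, 300 and 277 TPM (1.41 ± 0.10, limma adjusted p = 0.00024). Rasgrp1, which encodes an activator of Ras in lymphocytes, was at 9.28 and 8.69 against 32.7, 22.2 and 22.1 TPM (1.39 ± 0.20, limma adjusted p = 0.00314). In each of the 3 the groups did not overlap, but they were picked among called genes, so this adds no support.

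The largest falls in culture included a pair of interferon-induced genes. Irf7, an interferon regulatory factor gene, was at 49.6 and 69.6 TPM and fell to 4.37, 5.30 and 4.24 TPM (log2 difference -3.41 ± 0.19, limma adjusted p = 0.000127). Zbp1, a sensor of Z-form nucleic acid, went from 30.04 and 40.1 to 3.06, 3.94 and 3.46 TPM (-3.00 ± 0.19, limma adjusted p = 0.000141). The others were 2010300C02Rik, the gelatinase gene Mmp9 and Ighv12-3. Mmp9 was at 15.8 and 12.8 against 2.02, 1.76 and 2.14 TPM. No list of interferon genes was tested.

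Among the listed genes, the transcription factor gene Erg fell in culture from 181 and 226 to 140, 107 and 105 TPM, and so did Hoxa6, Hoxa7, Hoxa10, Pcdhb17 and Pcdhb22 from lower levels. Hoxa7 was at 1.47 and 2.20 against 0.336, 0.361 and 0.380 TPM, and Hoxa10, with a limma adjusted p of 0.0492, kept its call only without the first Wapl(dP1,2/dP1,2) library among the 8 alternatives run. Gata3 and Cebpa, markers of T and innate lymphoid cells and of myeloid cells, also fell, as did the multi-peak genes Plec and Tapbp and the abundant Vim. Of the 4 other myeloid markers tested in culture, which have no promoter peak, 1 was called higher and 1 lower. Bcl2l1, which encodes the survival protein Bcl-xL, rose from 82.5 and 99.6 to 154, 131 and 150 TPM. Of the 21 named genes called in culture, 11 lost the call without the first Wapl(+/+) library and 7 without the second. Erg, Pcdhb17, Cebpa, Bcl2l1, Rasgrp1 and Hoxa10 lost it in both cases, Hoxa6, Gata3, Col1a1, Col1a2 and Ramp1 without the first only, and Pcdhb22 without the second only. Ctcf was at 210, 163 and 157 TPM in Wapl(dP1,2/dP1,2) culture and did not pass the test, nor did any other of the 9 genes of the cohesin list.

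In sorted pro-B cells, 3202 genes with a promoter peak were tested and 542 were called (16.9%), where 17.3% of all 11980 genes tested were called. Higher were 260 and lower 282, against 7.67% and 9.63% over all genes. The median log2 differences were close to 0 in both. The count was 148 and 81 without the first and the second Wapl(dP1,2/dP1,2) library. Without either Wapl(+/+) library no gene was called in the sorted comparison: 637 and 653 members and 2456 and 2524 of all genes then had an unadjusted p under 0.05. In these libraries myeloid markers summed to 1199 and 2408 TPM in Wapl(+/+) and to 1184 and 2694 TPM in Wapl(dP1,2/dP1,2), and erythroid markers to 193 and 238 against 333 and 515 TPM. The Y-linked gene Eif2s3y was at 5.75 and 17.1 TPM in sorted Wapl(+/+) and listed at 0 in both sorted Wapl(dP1,2/dP1,2) libraries, and Ddx3y and Kdm5d showed the same split. Xist, which female cells express, was at 45.0 and 23.6 TPM in sorted Wapl(+/+) and at 49.0 and 62.8 TPM in sorted Wapl(dP1,2/dP1,2). The sorted Wapl(+/+) libraries thus held RNA of both sexes. The mix of sexes and genotype therefore cannot be told apart in the sorted comparison, and the part of the other cells was not tested.

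The largest rises in sorted cells were those of 0610040J01Rik, Enpep, Plk2, Fam78b and Plekhg1. Enpep, which encodes the aminopeptidase known as BP-1 on early B cells, was at 20.6 and 20.0 TPM in Wapl(+/+) and at 214 and 260 TPM in Wapl(dP1,2/dP1,2), a log2 difference of 3.48 ± 0.11 (SE, limma adjusted p = 3.01e-05). Plk2, a polo-like kinase gene, was at 4.30 and 4.48 against 48.4 and 51.7 TPM (3.24 ± 0.11, limma adjusted p = 3.01e-05). The largest falls were those of 4 Igh V genes, given below, and of Jub, an adaptor gene of cell junctions, at 17.8 and 18.1 against 1.42 and 2.13 TPM.

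Several listed genes with a promoter peak changed in sorted cells. Kit, the stem cell factor receptor gene, rose from 38.3 and 42.5 to 110 and 144 TPM (log2 difference 1.62 ± 0.14, limma adjusted p = 0.000558), and its peak lay 814.5 bp inside the gene with a core on the gene's strand. Bcl2l1 rose from 152 and 147 to 385 and 430 TPM. Pax5 rose from 383 and 364 to 502 and 530 TPM, and Bach2 from 115 and 105 to 173 and 216 TPM. The 4 genes had no overlap between groups, which adds no support since they were picked among called genes.

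Myc fell in sorted cells from 164 and 156 to 68.3 and 62.4 TPM (-1.28 ± 0.09, limma adjusted p = 0.000315). The glycolysis genes Pfkl, Hk2 and Pkm2 fell, as did the replication gene Mcm5, Xrcc5, Smc3 and Rpl10a, with log2 differences between -0.35 and -0.74. Hoxa5, Hoxa6 and Hoxa7 fell further, Hoxa7 from 16.7 and 12.98 to 2.43 and 1.88 TPM. Gadd45a, a p53 target, and Rpl35 rose. The rows of Bach2, Gadd45a and Rpl35 carry a suffix that the labels do not explain, as do those of Rpl5, Rpl32, Eno1, Lpcat3, Pcdha11, Pcdhgc5, Dnmt1, Srrt and Calu. The rows of the Igh V genes carry another.

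**Figure D5:**
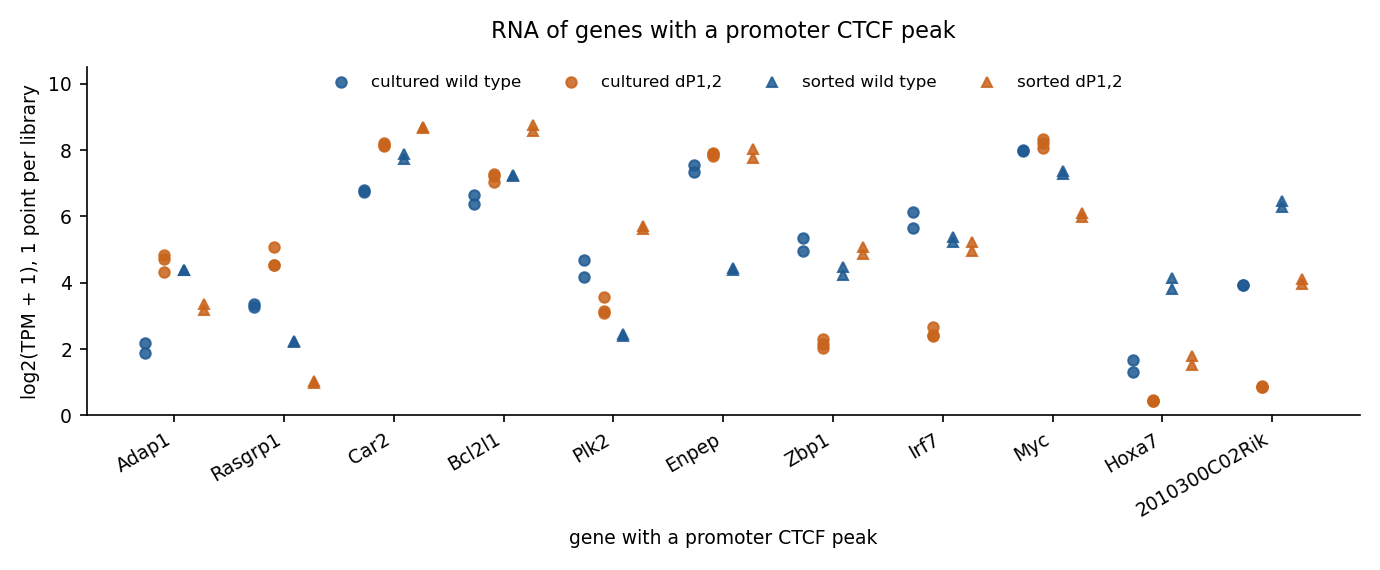
RNA as log2(TPM + 1) in each of the 9 mRNA-seq libraries, 1 point per library, for genes with a promoter CTCF peak, by culture or sort and by Wapl genotype. In TPM, Enpep stands at 20.6 and 20.0 in sorted Wapl(+/+) cells and at 214 and 260 in sorted Wapl(dP1,2/dP1,2) cells, and Irf7 is low in the cultured Wapl(dP1,2/dP1,2) libraries.

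Of 3099 genes with a promoter peak tested in both comparisons, which share no library, 121 were called in the same direction and 68 in opposite directions. Over all 11258 genes tested in both, the counts were 442 and 235. The difference between the mutant effects in sorted and cultured cells, tested in 1 limma fit over all 9 libraries, was called for 623 of 3421 members (18.2%), where 18.3% of all 13249 genes tested were called. All 68 with opposite calls were among them, as were all 235 over all genes. That fit reuses the libraries of the separate comparisons, so this is no further support for the opposite calls.

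Igh V genes with a peak were mostly lower in Wapl(dP1,2/dP1,2) cells. In culture 23 of the 28 were tested, 19 were lower in Wapl(dP1,2/dP1,2) and none was higher, where 18.5% of all genes tested were lower and 3.16% higher. In sorted cells 24 were tested, 17 were lower and 3 higher, where 9.63% of all genes tested were lower and 7.67% higher. TPM does not separate RNA of germline V genes from that of joined ones, and near-identical V genes share reads, so each level is uncertain. Igh V genes with no promoter peak were not compared, so whether the falls go with the peak was not tested.

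Position along the locus moved with the direction. The 4 V genes with a peak nearest to the J genes, Ighv5-2, Ighv2-2, Ighv5-4 and Ighv2-3, stood 149 to 182 kb from them, and none was lower in either comparison. In sorted cells Ighv2-2 rose from 13.7 and 19.4 to 44.1 and 44.8 TPM (log2 difference 1.39 ± 0.16, limma adjusted p = 0.00187), Ighv5-4 from 10.4 and 12.0 to 26.9 and 35.0 TPM, and Ighv2-3 from 12.9 and 11.8 to 22.2 and 20.1 TPM. Ighv5-2 was at 41.5 and 41.6 against 39.7 and 66.5 TPM, and its groups overlapped.

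The V genes with the largest falls lay farther away. Ighv12-3 went from 8.34 and 11.1 to 0.317 and 0 TPM in sorted cells, Ighv1-67 from 11.01 and 18.4 to 0.375 and 0 TPM, and Ighv1-69 from 19.2 and 22.2 to 1.27 and 0.704 TPM. Ighv1-74, listed under the name Gm16710, went from 8.98 and 12.5 to 0.634 and 0.352 TPM. In all 4 the groups did not overlap, which is no support beyond the calls that these genes were picked by. Ighv4-1, whose core is shown above, was at 15.0 and 15.7 against 3.15 and 0.700 TPM. The cores of Ighv5-4, which rose, and Ighv5-12, which fell from 9.25 and 9.38 to 5.99 and 4.55 TPM, are the same 12 letters, CCAGCAGGGGGC.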

How the data were processed

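CTCF ChIP-seq peak lists of 4 libraries and mRNA-seq values of 9 libraries were used, from a series of 167 samples. The deposited peak lists hold positions only, with no score or height. Per the series' text the authors placed wild-type peaks on mm9 and 890-inv peaks on a build for that allele, yet most 890-inv peaks inside Igh coincide with wild-type ones and were read as mm9. The deposited mRNA-seq files, 1 per library, hold TPM values (reads scaled per transcript length and library total), computed by the authors per gene and library. The submitters' processing notes name Bowtie 1.0, Bowtie2 2.1.0 and 2.2.9, MACS, MACS2 2.0, featureCounts 1.5.0 and other tools without tying them to a file. The aligner, caller and peak threshold behind each list are therefore unknown here, and so is sequencing depth. No column of a sample outside the series was used.

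Peaks were overlapped by at least 1 bp and placed against every transcript start of GENCODE M1 on NCBIM37 (mm9). A peak was a promoter peak when its midpoint lay within 1000 bp of a start. Of the 4071 coding genes with a promoter peak, 3946 (96.9%) had a row in the TPM files by symbol or RefSeq synonym, and 474 rows whose symbol stood on several rows were left out. V genes were named by RefSeq symbols. Sequences were read from the mm9 genome with pysam 0.24.0.

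TPM values were transformed as log2(TPM + 1). Genes reaching 1 TPM in 2 or more libraries of a comparison were tested with limma 3.58.1 (R 4.3.3), two-sided, with Benjamini-Hochberg adjustment over all genes tested. The cultured and the sorted comparisons share no library. TPM is not a count, so no count model was used. On simulated data with 200 changed genes, 56% of those changed by log2 1 and all of those changed by log2 2 were recovered in the cultured design. In the sorted design 81% and 94% were recovered. The changed genes were drawn from the more abundant ones and no shift between whole libraries was simulated. These rates therefore do not cover genes of low level. Library shares were compared with an exact permutation test (scipy 1.17.1).

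Named genes were those on fixed lists, the 10 most abundant, the 5 with the most peaks, the 5 with the largest rise and fall called in each comparison, the 10 most abundant with peaks missing from 890-inv, those in Igh, and those at the distance limit. Some genes that this rule names are not reported here. The members and the lists were chosen with earlier results of these data known. Alternatives covered the distance, overlap, width, starts used, TPM threshold, pseudocount, filter, scaling and each library left out.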

Additional observations from a re-analysis of the deposited data

Results flagged for a closer look

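The effect of Wapl(dP1,2) was called in opposite directions in cultured and sorted pro-B cells for 68 of 3099 genes with a promoter CTCF peak. Over all genes tested in both comparisons, the count was 235 of 11258, so such calls were not particular to genes with a peak. The 4 genes described here are those of the 68 that were also named genes. Each was named for a large rise or fall in culture or in sorted cells. As for all 68, the difference between their effects passed a limma fit over all 9 libraries. Each difference is the effect in sorted cells minus the effect in cultured cells, as a log2 value with its SE.

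Plk2 was at 24.6 and 17.2 TPM in cultured Wapl(+/+) and at 10.99, 7.77 and 7.54 TPM in cultured Wapl(dP1,2/dP1,2) libraries, whereas in sorted cells it was at 4.30 and 4.48 against 48.4 and 51.7 TPM. Its difference was 4.40 ± 0.28 (limma adjusted p = 5.83e-05). Zbp1, low in cultured Wapl(dP1,2/dP1,2) cells, was at 17.8 and 21.3 against 28.2 and 33.04 TPM in sorted cells, with a difference of 3.62 ± 0.24 (limma adjusted p = 7.67e-05). Both genes were thus lower in culture and higher after sorting.

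The other pair went the other way. Adap1 was at 19.7 and 19.9 against 9.19 and 7.96 TPM in sorted cells after its rise in culture, with a difference of -3.73 ± 0.26 (limma adjusted p = 8.09e-05). Rasgrp1 was at 3.76 and 3.68 against 0.972 and 1.06 TPM in sorted cells, with a difference of -2.62 ± 0.26 (limma adjusted p = 0.000454). In all 4 genes the genotypes did not overlap in culture or in sorted cells, but the genes were picked by their calls in both. In sorted cells none of the 4 kept its call without either Wapl(+/+) library. In culture Rasgrp1 lost its call without the first and without the second, and Plk2 was not among the genes checked in this way. In sorted cells Y-linked RNA was found in the Wapl(+/+) libraries only, so the mix of sexes and genotype cannot be told apart there. Cultured cells were grown for 3 days and sorted cells were not, and the libraries differ in markers of other cells as given above, so culture, sex and cell composition cannot be told apart here.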

How the results depend on the processing

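Of the 47 other settings tried for the summary values, 29 left the value within its error or within 1.5 times a count. For the promoter share per library, any difference of the same sign was counted among the 29, whatever its size. The share of coding genes with a promoter peak at 1 TPM or more, 81.4% as the mean of the libraries, was 83.1% with a limit of 500 bp, 78.6% with 2000 bp, 83.4% with peaks at or above the median width, 82.2% with the 5′-most start only, 70.7% at a threshold of 5 TPM and 89.0% at 0.1 TPM. Peaks at or above the median width in each library left 2744 promoter peaks, of which 80.0% were in both 890-inv libraries against 76.6% away from starts, so the order of these 2 shares turned. With only 1 of the 890-inv libraries the share present ran from 84.0% to 94.6%. Leaving out single RNA libraries gave 70 to 1646 called members in culture and 0 to 148 in sorted cells. Without the filter on low values the sorted comparison called 272 members, of which 254 were called before. With libraries centred on their medians, 501 of the 681 members called in culture were called again, and the direction of the calls moved from 14.8% to 55.8% higher. The share of promoter peaks per library differed by 0.0329 to 0.565 percentage points between the genotypes. Leaving out each wild-type library was read gene by gene only for listed genes and for the 5 largest rises and falls of each comparison. In culture some of these genes lost the call, as named above, and in sorted cells all did. The lone library left was then assumed to vary like the other group. No paired analysis was possible because replicate numbers here follow accession order and the labels give no shared animal, culture or day. Depth is unknown for peaks and TPM, 2 libraries a group limit every test, and shared reads limit ribosomal and V genes.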

Other observations

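Promoter peaks also lay at starts of small RNA genes: 93 were nearest to a small nucleolar RNA gene, 56 to a microRNA gene and 55 to a small nuclear RNA gene. Most of the microRNA genes were shorter than the distance to the peak, since 33 of these 56 peaks lay past the 3′ end. Another 124 peaks were nearest to a pseudogene.

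T-cell receptor V genes outside chromosome 14 had few promoter peaks. On chromosome 6 there were 6 peaks at V genes, of which 5 belong to genes named Trbv and 1 to Gm17526, which lies among them. Of the 6, 5 lay upstream of the start and 1 past the 3′ end, and the core was found at 2, both on the strand of the gene. On chromosome 13 there was 1, upstream, without the core. These genes were chosen after their values were seen.

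The place of the midpoint relative to the start went with presence in 890-inv. Across distance classes, 82.7% to 89.3% of peaks upstream of the start and 77.2% to 83.8% of those downstream were in both libraries. These ranges overlap, though at each distance the upstream share was the higher. The part of peak width in this was not tested.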
